A study of Mus musculus with 8 samples.

Results

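The genes described here were 10 immediate early and handling stress genes, Fos, Fosb, Jun, Junb, Jund, Egr1, Atf3, Ier2, Klf4 and Klf6, out of 31053 gene identifiers in a count table of brown adipose tissue (BAT). They are a fixed list of named genes, matched by symbol to the mouse annotation, and all 10 were found in the table. The list was chosen with earlier results of these data known.

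Immediate early genes are switched on within minutes of a stimulus, without the need for new protein synthesis, and their short-lived transcripts are cleared soon after. Kinase cascades act on factors already bound at their promoters, and the transcription factors they encode then act on later genes. In tissue samples the same genes respond to handling, dissection and enzymatic digestion, so they are often read as a record of how a sample was taken as well as of signalling in the living tissue. In brown fat, cold and noradrenaline are known to induce several of them through cAMP and CREB.

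The study profiled BAT by bulk RNA-seq in 4 libraries labelled WT and 4 labelled Cd36KO, all of strain C57BL6/J and all labelled as 8 weeks old, with no treatment given in the labels. The labels name the genotype only as Cd36KO. The study's text ties the BAT transcriptome to mice with CD36 flox/flox alleles and a Csf1r Cre, which deletes Cd36 in myeloid cells and leaves it in adipocytes and endothelial cells. Its legend for this experiment gives the same age as the labels, while its methods give a later age at sacrifice for that model and describe tissue harvest after fasting. Whether the WT mice carried floxed alleles or the Cre was not given. Labels and sources used here do not state the time of day, the killing order or the time from death to extraction for each library.

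The libraries held 2679785 to 4097953 counts. Values called normalized counts below were scaled by each library's DESeq2 size factor. The labels call the cell type stromal vascular fraction, but 11 brown adipocyte markers, Ucp1 among them, summed to 34670 to 53370 normalized counts in WT and 45810 to 48710 in Cd36KO, so genes that define mature adipocytes were present throughout. Of the 11, 3 were called higher in Cd36KO, Ucp1 with a log2 fold change of 0.82 (adjusted p = 0.00843), Cidea and Cox7a1. Another 5 had log2 fold changes below 0 that did not pass, among them Fabp4 (-0.73, adjusted p = 0.0762), whose Cd36KO libraries lay below all WT libraries, and Pparg (-0.53, adjusted p = 0.247). Summed skeletal muscle markers ranged from 711.6 to 57230 in WT, with WT replicate 1 highest, and from 134 to 8295 in Cd36KO. Summed white fat depot markers ranged from 696.9 to 5215 in WT, with WT replicate 1 lowest, and from 579.6 to 1053 in Cd36KO. Of these 10 markers 6 were called lower, and the 7 with a mean of at least 20 had a median log2 fold change of -2.59. Over all genes with an adjusted p, 1.42% were called higher and 1.53% lower. Xist had 772 to 1588 counts in each of the 8 libraries, and of 4 Y-linked genes only Ddx3y had any, 3 counts in WT replicate 1, whereas the study's methods give male mice. Cd36 itself averaged 2918 ± 454 in WT against 2087 ± 216 in Cd36KO libraries, in normalized counts (SD, n = 4), with a log2 fold change of -0.48 (SE 0.16, adjusted p = 0.060). All 4 Cd36KO libraries were below all 4 WT libraries, and Cd36 did not pass the threshold in the fit over all genes.

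None of the 10 members passed the threshold between Cd36KO and WT in DESeq2 (adjusted p under 0.05), where 2.95% of the 9617 genes with an adjusted p did. By direction, 1.42% of those genes were called higher and 1.53% lower in Cd36KO, a split that moved when libraries were left out (20 higher and 93 lower without the unnumbered Cd36KO library, 328 and 170 without WT replicate 4). The count of members called was also 0 in edgeR, in limma and in the DESeq2 likelihood ratio test. Over all genes these called 14 of 9793, 8 of 17367 and 279 of 9295. With so few calls over all genes, the absence of a call in edgeR or limma, here and below, says little. At an unadjusted p under 0.05 there were 2 members in DESeq2, Jun and Klf6, both lower in Cd36KO, out of the 7 with an adjusted p, against a background of 15.6% of the 9617 genes (7.88% lower and 7.69% higher). edgeR had 2 of 7 and limma 2 of 10 at that level. Fos, Fosb and Atf3 received no adjusted p, because their counts lay under DESeq2's filter on low means.

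No member separated the genotypes completely. Among genes averaging at least 20 normalized counts, all Cd36KO libraries lay below all WT libraries for 4.03% and above them for 5.41%, and for each of the 10 members the groups overlapped. The log2 fold change was below 0 for 6 members and above 0 for 4, with a median of -0.22 over the 10 members. Over the 7 members with an adjusted p the median was -0.061, beside -0.0087 over all genes with one. The median of the 10 ran from -0.36 without WT replicate 4 to -0.13 without the unnumbered Cd36KO library. Only 5 members had a mean of at least 20, namely Jun, Jund, Egr1, Klf4 and Klf6, and the statements on the other 5 rest on few counts. Over those with a mean of at least 20 the median was -0.46, beside 0.0041 over all 8219 genes at that level.

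**Figure D1:**
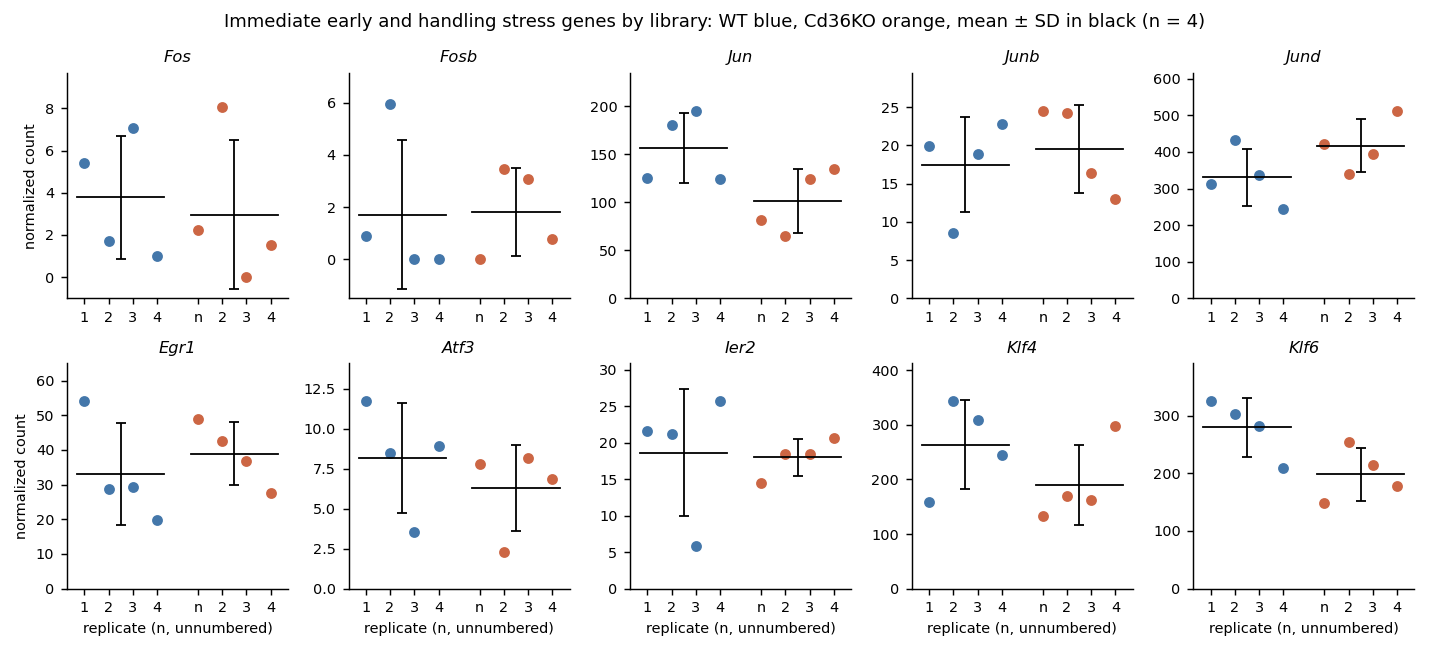
Normalized count of each of the 10 members in each library, WT replicates 1 to 4 in blue and the Cd36KO libraries in orange (n marks the unnumbered library), with the group mean and SD in black. The groups overlapped for every member, and Fos and Fosb stayed under 10 normalized counts in all 8 libraries.

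Short stretches of regulatory sequence show what the members share and where they differ. The promoter table of RefSeq (GRCm38.p6, 250 bases before to 50 after each start, 300 in all) held 8 of the 10 members. Searched on both strands, the CRE core TGACG, which is bound by CREB and ATF factors, was present in 5 of the 8 (Fos, Fosb, Junb, Atf3 and Klf4), against 20.8% of all 32851 promoters in the table. The stretches below are shown because this core is the element by which cAMP signalling is known to reach Fos. Each is 5′ to 3′ on the gene's strand, with the core in capitals (CGTCA where it lies on the other strand).
Fos, chr12:85473812-85473841, plus strand, core starting at -66: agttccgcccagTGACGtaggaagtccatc
Fosb, chr7:19310088-19310117, minus strand, -60: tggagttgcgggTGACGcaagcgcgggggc
Junb, chr8:84978837-84978866, minus strand, -106: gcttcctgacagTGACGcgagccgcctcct
Atf3, chr1:191183323-191183352, minus strand, -7: ttaatagcattaCGTCAgcctgggattggt
Klf4, chr4:55532690-55532719, minus strand, -232: ctgcctggctggCGTCAcggcctggccccg

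The letters of the TATA box, TATAAA, searched on the gene's own strand, were found in the windows of Fos and Junb and in 8.32% of all promoters. In Junb they began at the annotated start itself. In Fos they began at -33, within chr12:85473845-85473874 (plus strand), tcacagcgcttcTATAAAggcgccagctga, with the match in capitals. The GC box GGGCGG, which Sp and Klf family proteins bind, was found in 6 of the 8 members and in 35.7% of promoters. The full palindrome TGACGTCA (1.79% of promoters; it contains the core), the AP-1 site TGACTCA (5.20%) and the CArG box, the core of the serum response element (1.63%), were found in 0 of the 8 windows. For the serum response elements this says only that the letters were not within these 300 bases.

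The 3′ untranslated regions (UTRs) bear on how fast a transcript is lost. The AU-rich nonamer TTATTTATT, a binding site of the decay factors of the Zfp36 family, occurred in 1 of the 10 members, Fos, taking the longest annotated 3′ UTR per gene in GENCODE M21, and in 7.66% of 21021 protein-coding genes. The shorter pentamer ATTTA occurred in all members except Ier2, at 4.91 per kb in Fos and 4.12 per kb in Junb, with a median of 2.06 per kb over the 10 members and 1.24 per kb over all genes. The Fos element is shown beside those of Dusp1 and Zfp36l2, feedback genes whose values are given further on, with the nonamer in capitals (GRCm38).
Fos, chr12:85477103-85477132, plus strand: tgttttcaatTTATTTATTaagatggattc
Dusp1, chr17:26506158-26506187, minus strand: gagctggtccTTATTTATTtaacacccccc
Zfp36l2, chr17:84184913-84184942, minus strand: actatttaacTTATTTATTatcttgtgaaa

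Fos and Fosb encode the Fos proteins that pair with Jun proteins to form AP-1. Fos (ENSMUSG00000021250, chr12:85473890-85477273 in GRCm38, as for the genes below), the best known marker of recent stimulation, had 5.42, 1.70, 7.06 and 0.99 normalized counts in WT replicates 1 to 4. In Cd36KO it had 2.23 in the unnumbered library and 8.06, 0 and 1.53 in replicates 2 to 4. The raw counts behind these values were 0 to 7, and a count of 0 allows up to 3 counts in that library. Both the highest and the lowest of the 8 libraries were Cd36KO libraries. The log2 fold change of -0.38 had an SE of 1.09, and the 95% interval on the fold ran from 0.18 to 3.37, so a 3-fold difference in either direction was not detectable at this depth.

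Fosb (ENSMUSG00000003545, chr7:19302696-19310051) also had few reads, with 0.90, 5.95, 0 and 0 normalized counts in WT replicates 1 to 4, and 0 in the unnumbered Cd36KO library with 3.45, 3.07 and 0.76 in replicates 2 to 4. It was at 0 counts in 3 of the 8 libraries, and its highest value was 7 raw counts in WT replicate 2. Its log2 fold change was 0.029 with an SE of 1.54, which gives no direction.

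Jun, Junb and Jund encode the Jun proteins of AP-1. Jun (ENSMUSG00000052684, chr4:95049034-95052222), the c-Jun gene, is a single-exon gene whose product is activated by the JNK kinases. It had 125, 180.1, 195 and 125 normalized counts in WT replicates 1 to 4. The unnumbered Cd36KO library had 81.3, and replicates 2 to 4 had 64.4, 124 and 134. The means were 156 ± 36.7 in WT and 101 ± 33.4 in Cd36KO (SD, n = 4). WT replicates 2 and 3 were the highest and the unnumbered Cd36KO library and Cd36KO replicate 2 the lowest, with the other 4 libraries lying together between 124 and 134. The log2 fold change was -0.62 (SE 0.27, 95% interval -1.16 to -0.086), with an adjusted p of 0.22 in DESeq2 and 0.231 in edgeR. The exact permutation test (two-sided, 70 arrangements of the libraries, smallest possible p 0.0286) gave p = 0.114. This was the largest difference among the 5 members with a mean of at least 20, and it did not pass the threshold.

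Junb (ENSMUSG00000052837, chr8:84974484-84978718), which can restrain as well as assist c-Jun at AP-1 sites, had 19.9, 8.49, 18.8 and 22.8 normalized counts in WT. In Cd36KO it had 24.5 in the unnumbered library and 24.2, 16.4 and 13.0 in replicates 2 to 4. WT replicate 2, which was near the top for Jun, was the lowest for Junb. Its log2 fold change was 0.15 (SE 0.45), and the interval on the fold ran from 0.61 to 2.03.

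Jund (ENSMUSG00000071076, chr8:70698949-70700616), the family member that is expressed without stimulation and is least inducible, had the most reads of the 10, on a scale not corrected for length, with 311, 432, 336 and 244 normalized counts in WT. It had 422 in the unnumbered Cd36KO library and 341, 394 and 513 in replicates 2 to 4. Means were 331 ± 77.9 in WT and 417 ± 71.9 in Cd36KO (SD, n = 4). Cd36KO replicate 4 was the highest and WT replicate 4 the lowest, while WT replicate 2 lay above 3 of the 4 Cd36KO libraries. The log2 fold change was 0.33 (SE 0.21, adjusted p = 0.460, exact permutation p = 0.20), with an interval on the fold of 0.95 to 1.67. Without WT replicate 4 it was 0.21 and without Cd36KO replicate 4 0.22. The Jun and Jund estimates thus had opposite signs, and the difference between them was not tested.

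Strand was not stated for the counting, and all Jun genes overlap a gene on the other strand. Junos shares 232 bases with Jun, Prdx2 shares 173 bases with Junb, and Gm11175 shares 877 of the 1668 exonic bases of Jund. Prdx2 was abundant (mean 835 normalized counts) and had a log2 fold change of 0.44 with an adjusted p of 0.160. Without strand its reads in the shared bases cannot be told apart from those of Junb, whereas Junos (mean 2.80) and Gm11175 (mean 0.13) were nearly absent.

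Atf3 (ENSMUSG00000026628, chr1:191170296-191218039) encodes a stress-induced CREB family repressor. It had 11.7, 8.49, 3.53 and 8.90 normalized counts in WT, and 7.80 in the unnumbered Cd36KO library with 2.30, 8.18 and 6.86 in replicates 2 to 4. WT replicate 3 and Cd36KO replicate 2 were low and the other 6 libraries lay between 6.86 and 11.7. With a log2 fold change of -0.38 (SE 0.65), it had a fold interval of 0.32 to 1.86. The log2 fold change was -0.12 without Cd36KO replicate 2, -0.16 without WT replicate 1 and -0.61 without WT replicate 3.

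Egr1 (ENSMUSG00000038418) encodes a zinc finger factor that rises with ERK signalling. It had 54.2, 28.9, 29.4 and 19.8 normalized counts in WT, and 49.0 in the unnumbered Cd36KO library with 42.6, 36.8 and 27.5 in replicates 2 to 4. WT replicate 1, the library with the most muscle RNA, was the highest and WT replicate 4 the lowest, so WT spanned the whole Cd36KO range. Cd36KO against WT gave 0.22 on the log2 scale (SE 0.37, adjusted p = 0.835). Leaving out WT replicate 1 gave 0.57 (adjusted p = 0.572), and leaving out WT replicate 4 or the unnumbered Cd36KO library gave 0.042 and 0.096. Whether muscle RNA has a part in the Egr1 value of that library was not tested.

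Ier2 (ENSMUSG00000053560, chr8:84661331-84662852), an intronless immediate early gene of nuclear function, had 21.7, 21.2, 5.88 and 25.7 normalized counts in WT. In Cd36KO it had 14.5 in the unnumbered library and 18.4, 18.4 and 20.6 in replicates 2 to 4. WT replicate 3 stood apart at 5 raw counts, and the other 7 libraries lay between 14.5 and 25.7. Its log2 fold change was -0.061 (SE 0.46) and the interval on its fold 0.52 to 1.78.

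Klf4 and Klf6 encode Krüppel-like zinc finger factors with roles in endothelial, smooth muscle and macrophage cells as well as in the immediate early response. Klf4 (ENSMUSG00000003032, chr4:55527143-55532466) had 158, 344, 308 and 244 normalized counts in WT, and 133 in the unnumbered Cd36KO library with 169, 163 and 298 in replicates 2 to 4. Of the Cd36KO libraries, 3 lay at 133 to 169 beside WT replicate 1, and Cd36KO replicate 4 lay among the other WT libraries. Means were 264 ± 81.6 in WT and 191 ± 73.5 in Cd36KO (SD, n = 4), with a log2 fold change of -0.46 (SE 0.29, adjusted p = 0.465, exact permutation p = 0.257). It was -0.77 without Cd36KO replicate 4 and -0.30 without WT replicate 2.

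Klf6 (ENSMUSG00000000078, chr13:5861482-5870394) had 326, 303, 282 and 209 normalized counts in WT, and 148 in the unnumbered Cd36KO library with 254, 214 and 178 in replicates 2 to 4. Means were 280 ± 50.8 in WT and 199 ± 45.9 in Cd36KO (SD, n = 4). WT replicates 1 to 3 lay above all Cd36KO libraries, and WT replicate 4 lay below Cd36KO replicates 2 and 3. The log2 fold change was -0.50 (SE 0.22, 95% interval -0.93 to -0.071), with an adjusted p of 0.216 in DESeq2, 0.244 in edgeR and an exact permutation p of 0.0857. Klf6 passed the threshold without WT replicate 4 (log2 fold change -0.62, adjusted p = 0.0438) and with the white fat depot markers as a covariate (-0.95, adjusted p = 0.0487), an alternative chosen after seeing the data. It was -0.38 (adjusted p = 0.618) without the unnumbered Cd36KO library and -0.30 (adjusted p = 0.850) in the 6 numbered libraries. It was the only member that any of the 18 alternatives called.

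In bulk tissue, fewer cells of a type and less RNA per cell cannot be told apart. Summed macrophage markers were 598.5 to 951.5 in WT and 636.2 to 950.4 in Cd36KO. Of 12 markers 1 was called, lower in Cd36KO, beside 1.53% called lower over all genes with an adjusted p. This was Cd163 (log2 fold change -1.25, adjusted p = 0.0183, no overlap between the groups). Mrc1 had -0.85 (adjusted p = 0.191). Summed endothelial markers were 1345 to 1730 and 1443 to 2202, with 0 of 10 called. The part of these cell types in the Klf4 and Klf6 values was not tested.

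**Figure D2:**
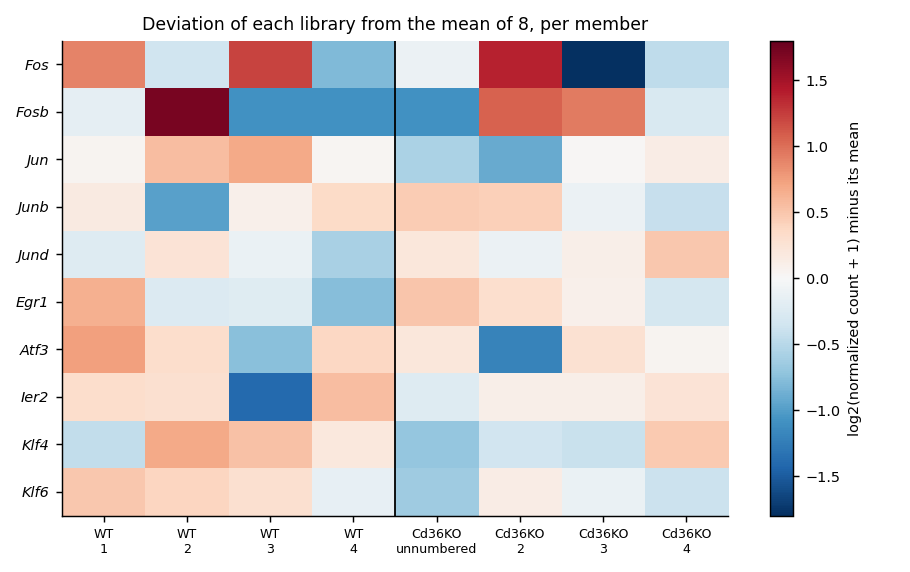
Deviation of each library from the mean of all 8, on the log2(normalized count + 1) scale, for the 10 members (rows) in the 4 WT and 4 Cd36KO libraries (columns); red is above and blue below the mean. No library was high or low for all members, and the deepest colours belong to Fos, Fosb, Ier2 and Atf3, which had the fewest reads.

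Spread within a group was described as the standard deviation of log2(normalized count + 1) over its 4 libraries. Over the 10 members the median was 0.590 in WT and 0.461 in Cd36KO. The 5 members with a mean under 20 had medians of 0.903 and 0.697, against 0.725 and 0.665 for the 4492 genes with a mean of 2 to 20. The 5 members with a mean of at least 20 had 0.339 in WT and 0.348 in Cd36KO, against 0.329 and 0.278 over the 8219 genes at that level. At a mean of at least 50, 4 members had 0.338 in WT and 0.416 in Cd36KO, against 0.299 and 0.245 over 5528 genes. The members' median was thus above that of all genes in both groups at each level. The excess was larger in Cd36KO at a mean of at least 20 or 50, and larger in WT under 20.

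Reads that are merely sampled at random also spread, and the observed spread was set against that counting error. The coefficient of variation (CV) of Klf4 was 31.0% in WT and 38.5% in Cd36KO, 5.06 and 5.41 times what counting alone would give. The CV of Jund was 23.5% and 17.2%, or 4.34 and 3.54 times counting error, that of Jun 23.5% and 33.1% (2.95 and 3.37 times) and that of Klf6 18.1% and 23.1% (3.07 and 3.22 times). Egr1 had 44.6% in WT, the widest of the 5, and 23.5% in Cd36KO, 2.61 and 1.44 times counting error. For comparison the median ratio over genes with a mean of at least 20 was 2.11 in WT and 1.79 in Cd36KO.

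Among the 5 low members the ratio varied. Its median was 1.49 in WT and 1.22 in Cd36KO, against 1.46 and 1.29 over genes with a mean of 2 to 20. Atf3 had a CV of 41.8% in WT and 43.2% in Cd36KO, 1.23 and 1.09 times counting error. Ier2 had 46.9% in WT, with replicate 3 far below the others, and 14.2% in Cd36KO, or 2.09 and 0.60 times counting error. Fos stood at 1.48 and 1.96 times counting error in WT and Cd36KO, Fosb at 2.36 and 1.22 and Junb at 1.49 and 1.27. DESeq2's own dispersion estimate, taken over both groups, was above the trend of genes at the same level for Klf4 (0.0775 against 0.0440) and Jun (0.0640 against 0.0537), and close to it or under it for Jund (0.0392 against 0.0390), Klf6 (0.0414 against 0.0433) and Egr1 (0.103 against 0.111).

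**Figure D3:**
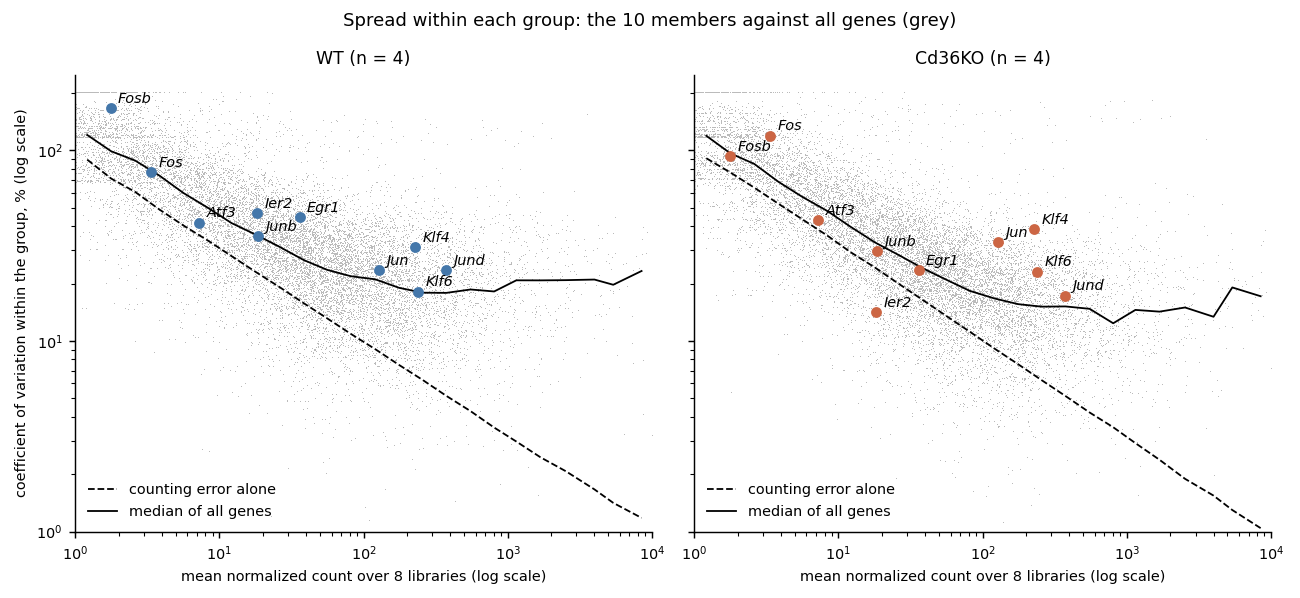
Coefficient of variation within WT (left) and Cd36KO (right) against the mean normalized count, both on log axes, for all genes with a mean of at least 1 (grey) and the 10 members (coloured). The dashed line is counting error alone and the solid line the median of all genes; Klf4 lay above the solid line in both groups (31.0% and 38.5%), and Ier2 lay under the dashed line in Cd36KO (14.2%).

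To see whether the members varied together, the 10 pairs of the 5 members with a mean of at least 20 were compared over the 8 libraries on the log2 scale. Jun and Klf4 had the highest Pearson r, 0.764 (exact permutation p = 0.0253, 0.152 adjusted over 10 pairs), with a Spearman rho of 0.738 (p = 0.0458, adjusted 0.229, exact permutation), and r was 0.822 without the 2 libraries farthest from the Jun median. Egr1 and Klf4 had the lowest, r = -0.772 (exact permutation p = 0.0304, adjusted 0.152) and rho = -0.738 (p = 0.0458, adjusted 0.229, exact permutation), with r = -0.948 without the 2 libraries farthest from the Egr1 median. With the group means removed, r was highest for Jun and Jund, 0.698 (0.056 before), and was 0.677 for Jun and Klf4, 0.573 for Jund and Klf4 (0.143 before) and -0.740 for Egr1 and Klf4. No pair passed after adjustment, and the other 8 had r between -0.508 and 0.425. Egr1 was thus high where Klf4 was low, WT replicate 1 and the unnumbered Cd36KO library being the clearest cases.

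The mean standardized profile of these 5 members was highest in WT replicate 2 and lowest in WT replicate 4. Each of the 5 is part of that profile. Correlation with it, a description over 8 libraries that share their depth and tissue makeup across genes, was 0.731 for Jun, 0.614 for Klf6, 0.603 for Klf4, 0.436 for Jund and -0.0097 for Egr1. Of the 5 members that are not part of it, Junb had -0.788 and the others lay between -0.288 and 0.391. Outside the members, the 10 of 5524 genes with a mean of at least 50 that followed the profile most closely were Emc2 (r = 0.938), Zfhx4 (0.935), Uvssa (0.918), Mrc1 (0.915), Slc26a2 (0.913), Zfp62 (0.909), Odf2 (0.908), Naa16 (0.907), Tjp1 (0.902) and Slc4a7 (0.902). None of the 10 passed the threshold between the genotypes.

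Around the members, 117 further genes in 7 lists of related responses were read in the same fit. Of the 84 with an adjusted p, 4 passed the threshold, all lower in Cd36KO. These were Dusp1, Zfp36l2, Maf and Klf9, in 3 different lists, against the 1.53% called lower over all genes. The lists were drawn up with earlier results of these data known, so their counts are a description. The white fat depot markers moved with genotype as given above, and 2 of 10 stromal markers were called lower as well. With the white fat markers as a covariate Dusp1 (log2 fold change -1.52, adjusted p = 0.129), Zfp36l2 (-0.73, 0.386) and Klf9 (-0.60, 0.0706) did not pass and Maf did (-1.23, 0.0111). Without the covariate the log2 fold changes were -1.44 for Dusp1, -1.27 for Zfp36l2, -0.45 for Klf9 and -1.08 for Maf. Whether white fat content has a part in these values was not tested.

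**Figure D4:**
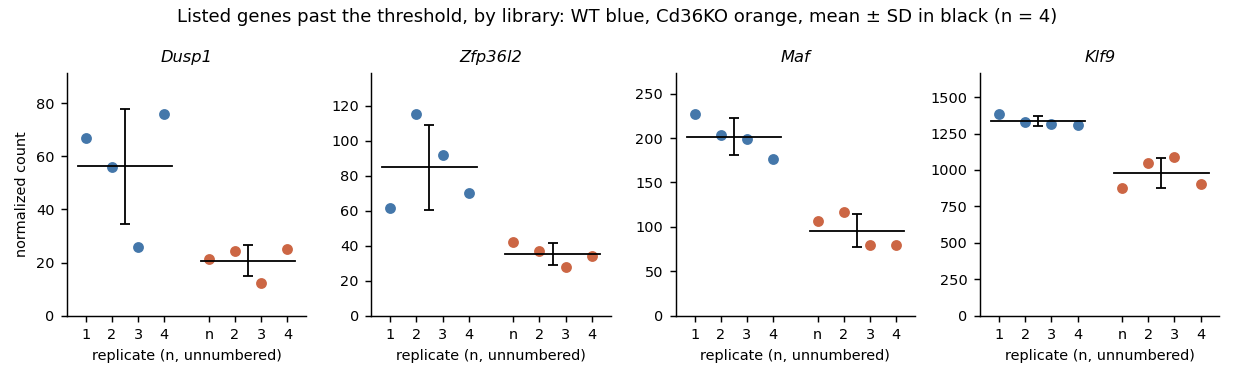
Normalized count by library of the 4 listed genes that passed the threshold, WT in blue and Cd36KO in orange (n marks the unnumbered library), with the group mean and SD in black. All 4 Cd36KO libraries lay below all 4 WT libraries for each gene, with Dusp1 closest to overlap (25.9 in WT replicate 3 against 25.2 in Cd36KO replicate 4).

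The feedback list held 25 early response genes, many of which are induced with the immediate early genes and limit the response. Of these 15 had an adjusted p, 2 passed, both lower, and 5 had an unadjusted p under 0.05, all lower (Dusp1, Dusp6, Zfp36, Zfp36l2 and Nfkbia), where 7.88% of all genes with an adjusted p were lower at that level. Over the 14 with a mean of at least 20 the median log2 fold change was -0.29, with 8 below 0 and 6 above.

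Dusp1, the phosphatase that inactivates p38, JNK and ERK, had 66.8, 56.1, 25.9 and 76.2 normalized counts in WT, and 21.2 in the unnumbered Cd36KO library with 24.2, 12.3 and 25.2 in replicates 2 to 4. WT replicate 3 lay just above the Cd36KO libraries and the other WT libraries at more than 50 counts. Dusp1 was lower by a log2 fold change of -1.44 (SE 0.39, adjusted p = 0.0157 in DESeq2), the adjusted p was 0.110 in edgeR, and it passed in 6 of 18 alternatives. Its promoter holds the full CRE that the members' windows lack, shown in capitals within chr17:26508597-26508626 (minus strand, starting at -143): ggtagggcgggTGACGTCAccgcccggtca.

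Zfp36l2, which binds the AU-rich nonamer shown for Fos and carries one in its own 3′ UTR, had 61.4, 115.5, 91.7 and 70.2 normalized counts in WT. It had 42.3 in the unnumbered Cd36KO library and 36.8, 27.6 and 34.3 in replicates 2 to 4, so the groups did not overlap. Zfp36l2 had a log2 fold change of -1.27 (SE 0.29, adjusted p = 0.00289 in DESeq2, 0.0749 in edgeR and 0.106 in limma), and it passed in 13 of 18 alternatives. Dusp6, the third gene the naming rule picked here, had a log2 fold change of -0.93 (SE 0.42, adjusted p = 0.232).

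Among 13 other AP-1 and bZIP partners 1 passed. Maf, a bZIP factor of macrophages and other lineages, had 227, 204, 199 and 176 normalized counts in WT, and 107 in the unnumbered Cd36KO library with 116, 79.8 and 79.3 in replicates 2 to 4. The gap between the groups was wider than the range within either. Maf had a log2 fold change of -1.08 (SE 0.20, adjusted p = 8.08e-05 in DESeq2 and 0.0394 in edgeR), and it passed in all 18 alternatives, which no other named gene did. Atf7 had a log2 fold change of -0.30 (SE 0.25, adjusted p = 0.624) and Atf4, the factor of the integrated stress response, one of 0.23 (SE 0.17, adjusted p = 0.553).

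Among 18 other immediate early transcription regulators none passed in DESeq2, edgeR or limma. Of the 11 with an adjusted p, 2 had an unadjusted p under 0.05 in DESeq2, Nr4a3 and Cebpb, both higher. Over all genes with an adjusted p, 7.69% were higher at that level. Nr4a3, an orphan nuclear receptor induced by cAMP, had 62.3, 35.7, 57.6 and 30.7 normalized counts in WT, and 84.7 in the unnumbered Cd36KO library with 84.0, 76.7 and 84.7 in replicates 2 to 4. The 4 Cd36KO libraries lay together above WT, with a log2 fold change of 0.83 (SE 0.28, adjusted p = 0.070). Nr4a3 passed in 1 of 18 alternatives, without WT replicate 1 (1.01, adjusted p = 0.0252). Over the 18 its log2 fold change ran from 0.38 to 1.04. Nfil3 had a log2 fold change of 0.49 (SE 0.39, adjusted p = 0.588) and Klf2 one of -0.45 (SE 0.28, adjusted p = 0.453). Klf2 passed without Cd36KO replicate 4 (-0.81, adjusted p = 0.0352).

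Among 15 effector genes, 10 had a mean under 20 and none passed in DESeq2, edgeR or limma. At an unadjusted p under 0.05 in DESeq2 there were 2 of the 7 with an adjusted p, Rhob and Mcl1, both lower. Over all genes with an adjusted p, 7.88% were lower at that level. Errfi1, a feedback inhibitor of the EGF receptor (-0.79, SE 0.42, adjusted p = 0.352), the kinase gene Sgk1 (-0.74, SE 0.41, adjusted p = 0.378) and the small GTPase gene Rhob (-0.61, SE 0.29, adjusted p = 0.259) had log2 fold changes that did not pass. Rhob passed without WT replicate 1 (-0.84, adjusted p = 0.00729) and in the 6 numbered libraries (-0.74, adjusted p = 0.0437), and Sgk1 without Cd36KO replicate 4 (-1.29, adjusted p = 0.0352).

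None of the 19 upstream kinases and factors that switch the members on passed in DESeq2, edgeR or limma, and none of the 18 with an adjusted p had an unadjusted p under 0.05 in DESeq2. Their median log2 fold change was 0.026 over the 17 with a mean of at least 20. The largest were Mrtfa (0.60, SE 0.37, adjusted p = 0.462), Rps6ka3 (-0.46, SE 0.33, adjusted p = 0.526) and Ep300 (-0.44, SE 0.25, adjusted p = 0.413). Srf, Elk1 and Creb1, the factors that sit at Fos before stimulation, had log2 fold changes of 0.12, -0.25 and -0.14 with adjusted p values of 0.903, 0.796 and 0.846. These are transcript levels and carry no information on phosphorylation.

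Of 14 heat shock genes, another mark of handling, none passed in DESeq2, edgeR or limma. The inducible Hspa1a was low, at 14.4, 7.64, 1.18 and 6.92 normalized counts in WT. In Cd36KO it had 4.46 in the unnumbered library and 3.45, 5.11 and 2.29 in replicates 2 to 4. WT replicate 1 was thus highest for Hspa1a, as it was for Egr1 and Atf3. The same library was the lowest of the 8 for Hspa8, Dnajb1, Hsp90ab1 and Hspe1, which had more reads than Hspa1a. The largest log2 fold changes at a mean of at least 20 were those of Hsf1 (-0.41, SE 0.38, adjusted p = 0.678), Hspb8 (-0.40, SE 0.53, adjusted p = 0.788) and Hspb1 (0.40, SE 0.19, adjusted p = 0.268). Hspb8 passed in 1 of 18 alternatives, a DESeq2 fit with the replicate number as a block (adjusted p = 0.00228), and changed sign in 3.

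Glucocorticoids also rise with handling stress. The last list held 14 glucocorticoid-responsive and fasting genes, among them the receptor gene Nr3c1, and does not separate handling from fasting. Of the 14, 1 passed. Klf9 had 1387, 1328, 1317 and 1308 normalized counts in WT, and 878 in the unnumbered Cd36KO library with 1047, 1088 and 904.5 in replicates 2 to 4. Its log2 fold change was -0.45 (SE 0.13, adjusted p = 0.0304 in DESeq2 and 0.185 in edgeR), and it passed in 6 of 18 alternatives. The list's median was -0.39, with 10 genes below 0 and 4 above. At an unadjusted p under 0.05 there were 4 lower (Tsc22d3, Klf9, Ddit4 and Nr3c1) and 1 higher (Mt1), and for 4 genes all Cd36KO libraries lay below all WT libraries, where 7.88%, 7.69% and 4.03% of all genes did so. Zbtb16 (-0.76, SE 0.56, adjusted p = 0.546), Sgk1 and Fkbp5 (-0.73, SE 0.52, adjusted p = 0.531) were the largest in size that did not pass, and Fkbp5 ranged from 4.46 in the unnumbered Cd36KO library to 49.5 in Cd36KO replicate 2.

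**Figure D5:**
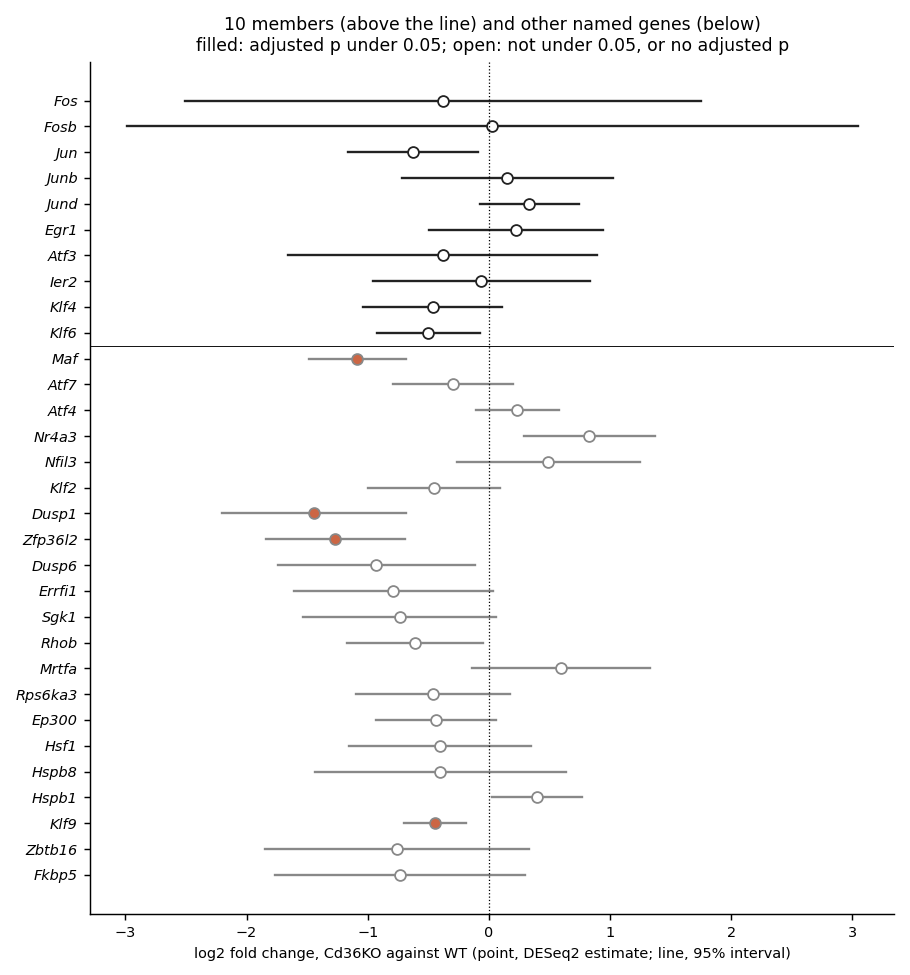
Log2 fold change of Cd36KO against WT with its 95% interval for the 10 members (above the line) and the other named genes (below), from the DESeq2 fit over all genes; filled points passed the threshold. The intervals of 8 members include 0, those of Jun and Klf6 do not, and the 4 filled points lie between -1.44 and -0.45.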

How the data were processed

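Bulk RNA-seq libraries of BAT, 4 labelled WT and 4 labelled Cd36KO, were grouped by their labels. By the study's methods, the authors cleaned single-end reads using bbduk, mapped to mm10 using STAR and obtained gene counts from HTSeq-count. The submitters' processing notes name Trimmomatic and HISAT2 instead, and the study's own software list includes both. Which made these files is not given in the sources used here. Strand setting and annotation release were not given there either. The deposited counts are whole numbers per gene, not normalized. The deposited log2 values were checked to equal log2(count / size factor + 1) and served for limma. The annotation file deposited for the samples was not used.

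Symbols, coordinates and 3′ UTRs came from GENCODE M21 (GRCm38) and promoters from RefSeq (GRCm38.p6), and 30934 of 31053 identifiers matched. Libraries held 2679785 to 4097953 counts and reads are not independent molecules. Intervals are 95% Wald intervals from DESeq2, which include the dispersion between libraries, while counting error as given covers counting only. No pair of the 28 library pairs agreed within sampling noise (lowest chi-square per degree of freedom 6.43). The labels do not say whether libraries came from separate mice, while the study's legend for this experiment counts mice per group.

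DESeq2 1.42.0 in R 4.3.3, with its Wald test, its own size factors and default filters, was fitted over all genes with genotype as the only term, because the study names DESeq2, with Benjamini-Hochberg adjustment and a threshold of 0.05. Alternatives included edgeR 4.0.16 (quasi-likelihood) and limma 3.58.1. Single genes were also tested by an exact two-sided permutation test over 70 arrangements. The fits were tested on simulated data. Genes named outside the members were those called in each list and the 10 closest to the members' profile. At a mean of at least 20, the 3 of largest absolute log2 fold change in each list were named too. Zfp36, Nfkbia, Cebpb, Mcl1, Srf, Elk1, Creb1, Hspa1a, Tsc22d3, Ddit4, Nr3c1, Mt1, Fabp4, Pparg, Cd163 and Mrc1 were added after their values were seen. Hspa8, Dnajb1, Hsp90ab1 and Hspe1 were added in the same way. The members and lists were chosen with earlier results of these data known. From these lists 2 genes are not reported here, and they are left out of the list counts.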

Additional observations from a re-analysis of the deposited data

Results flagged for a closer look

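Of 64 groups of 4 libraries tested among the members and the other named genes, 4 had a library far from its group by Dixon's test on the log2(normalized count + 1) scale, where chance gives about 1 in 20, or 3.2. Among the members, Atf3 was at 2.30 normalized counts in Cd36KO replicate 2 and Ier2 at 5.88 in WT replicate 3, both below the rest of their group. Outside them, Nr4a3 was at 76.7 in Cd36KO replicate 3, in a group otherwise between 84.0 and 84.7, and Sgk1 was at 44.5 in WT replicate 4, against 111 or more in the other WT libraries.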

How the results depend on the processing

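Genes called between the genotypes numbered 284 in DESeq2, and 14 in edgeR (4 higher, 10 lower), 8 in limma, 171 with independent filtering off and 718 (566 higher, 152 lower) with the white fat depot markers as a covariate, an alternative chosen after seeing the data. Leaving out 1 library gave 70 to 498, with changes of more than 1.5 times without WT replicate 2 (70), 3 (140) or 4 (498) and without the unnumbered Cd36KO library (113) or Cd36KO replicate 3 (133) or 4 (125). The count of members called stayed at 0 in 16 of 18 alternatives and was 1 without WT replicate 4 and 1 with the white fat covariate, Klf6 in both; over single libraries left out it ran from 0 to 1. The 4 listed genes called became 1 in edgeR, 1 in limma, 2 with the muscle markers as a covariate, 8 with the white fat covariate and 1 to 5 when a library was left out (1 without WT replicate 2, and 2 without the unnumbered Cd36KO library or Cd36KO replicate 2). The cause of these changes was not tested.

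The median log2 fold change of the 10 members, -0.22, was 0.035 in the 6 numbered libraries and -0.50 with the white fat covariate. Over the 7 members that edgeR tested, its median was -0.078, beside -0.061 over the 7 with an adjusted p in DESeq2. Cd36 passed without WT replicate 4 (-0.565, within -0.57 to -0.38 over libraries left out) and with the muscle covariate (-0.66). Sign changes touched results that had not passed. With the muscle covariate they were Fosb (-1.94), Atf3 (0.23), Ier2 (0.34) and Hspb8 (0.049), with the white fat covariate Fosb (-1.10), Egr1 (-0.52), Klf4 (0.26), Rhob (0.49) and Hspb8 (1.09), and in limma Ier2 (0.11). Leaving out 1 library gave ranges across 0 for Fos (-1.58 to 0.098), Fosb (-0.46 to 2.31), Junb (-0.085 to 0.32), Ier2 (-0.34 to 0.12) and Hspb8 (-0.79 to 0.028). Jun, Jund and Klf6 kept their sign in all 18 alternatives. The members' median spread ran from 0.487 to 0.621 in WT and 0.355 to 0.516 in Cd36KO over libraries left out.

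Replicate numbers were shared by 3 pairs, whose deviations from the group means correlated at -0.127, 0.422 and 0.141, and 2 of 3 libraries correlated best with their own number, so the numbers were not taken to pair the libraries. With the replicate block the 3 pairs gave 221 calls (32 higher, 189 lower), 0 of them members and 4 listed genes, and an Ier2 log2 fold change of 0.28, against 262 calls (48 higher, 214 lower), 0 members, 3 listed genes and 0.11 for the same 6 libraries with genotype only. Hspb8 had an adjusted p of 0.00228 with the block (log2 fold change -0.97) and of 0.0576 in the same 6 libraries without it, and Klf6 had a log2 fold change of -0.29 with the block.

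Depth limits Fos, Fosb, Junb, Atf3 and Ier2, all under 20 normalized counts on average, where differences smaller than the intervals given were not detectable. Adjusted p values that DESeq2 did not give count as not passed.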
